A study of Mus musculus with 3 samples.

Results

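The 4 rows described here carry the names C1qa, C1qb, C1qc and Ctss, out of 24458 rows with 23934 gene symbols. They were chosen by their RPKM values, which were alike in the 3 libraries, so those values are given as a description and are not tested. C1q is the recognition molecule of the classical complement pathway, built from 3 related chains encoded by C1qa, C1qb and C1qc. It binds antibody, dying cells and, in the developing and diseased brain, synapses, and so starts the cleavage of complement proteins C4, C2 and C3. In the healthy brain microglia are the main source of C1q. Ctss encodes cathepsin S, a lysosomal cysteine protease of microglia and other phagocytes that trims the invariant chain of class II histocompatibility molecules.

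RNA was sequenced from the dissected dentate gyrus of C57BL/6 mice aged 8 weeks. The 3 libraries form 1 group, labelled E24, with 1 animal per library. The name of the table adds WT and ECT to all 3 libraries. None of these abbreviations is put into words by the labels, and the study as a whole concerned neuronal activation. No second group was analysed, so nothing below compares conditions. Values are RPKM, reads scaled to the length of the gene and the size of the library, and the read depth behind them is unknown. In tissue RNA, fewer cells of a type and less RNA per cell cannot be told apart. The values of a row often disagreed between the 3 libraries, with 53.7% of all rows apart by the rule given below. Whether values are displaced along the table was not tested. Each value below is therefore given for a named row. Whether it belongs to the named gene is taken up row by row for the C1q and Ctss rows only, and was not tested for the other listed genes.

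The 3 C1q genes lie side by side on chromosome 4 and Ctss lies on chromosome 3. Their promoters are shown because the 3 C1q rows are neighbours with like values. By symbol, 3 of the 4 members matched RefSeq promoters of GRCm38.p6, a later build than the mm9 of the table: C1qb (chr4:136886201-136886450, minus strand), C1qc (chr4:136892915-136893164, minus strand) and Ctss (chr3:95526536-95526785, plus strand). Each is the 250 bases before the gene's start as RefSeq places it, 5′ to 3′ on the gene's strand. Capitals mark GAGGAA, the core bound by the microglial factor PU.1 (encoded by Spi1) and its relatives, or GAAANNGAAA, the core bound by interferon regulatory factors, on either strand.
C1qb: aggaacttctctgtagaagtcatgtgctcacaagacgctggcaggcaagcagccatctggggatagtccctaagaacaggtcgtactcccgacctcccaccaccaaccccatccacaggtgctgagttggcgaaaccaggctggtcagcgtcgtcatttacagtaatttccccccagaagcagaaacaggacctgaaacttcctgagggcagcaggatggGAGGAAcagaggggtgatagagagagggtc
C1qc: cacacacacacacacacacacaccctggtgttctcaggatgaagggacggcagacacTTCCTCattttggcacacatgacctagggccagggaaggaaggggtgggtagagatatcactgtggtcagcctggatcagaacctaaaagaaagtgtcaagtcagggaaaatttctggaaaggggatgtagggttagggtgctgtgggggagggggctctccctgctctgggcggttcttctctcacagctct
Ctss: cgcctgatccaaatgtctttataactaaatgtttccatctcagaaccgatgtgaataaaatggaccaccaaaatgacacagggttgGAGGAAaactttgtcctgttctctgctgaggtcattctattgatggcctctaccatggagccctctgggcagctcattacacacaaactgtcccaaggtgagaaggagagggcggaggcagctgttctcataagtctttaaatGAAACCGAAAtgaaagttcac
GAGGAA stood in each of the 3, at 30 to 25 bases before the start of C1qb, 193 to 188 before that of C1qc (as TTCCTC, on the opposite strand) and 164 to 159 before that of Ctss. Of 32851 RefSeq promoters of this length, 23.3% held it. GAAANNGAAA stood 21 to 12 bases before the start of Ctss only, and 2.98% of the promoters held it. The motifs did not overlap. A match describes letters, not binding.

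The row of C1qa, which encodes the A chain, lies at chr4:136451830-136454759 (mm9) and held 29.5, 24.5 and 23.2 RPKM in replicates 1, 2 and 3. Replicate 1 was highest, and the mean was 25.7 ± 3.30 RPKM (SD, n = 3). The row of C1qc, the C chain (chr4:136445716-136448829), held 30.2, 23.1 and 21.7 RPKM, with a mean of 25.0 ± 4.58. It followed the same order as the C1qa row. The row of C1qb, the B chain (chr4:136436060-136442092), held 18.9, 28.1 and 25.3 RPKM, with a mean of 24.1 ± 4.70. It went the other way, with replicate 1 lowest. The Ctss row (chr3:95330707-95360327) held 29.4, 26.5 and 23.7 RPKM, with a mean of 26.5 ± 2.82, and was again highest in replicate 1.

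By mean the order was Ctss, C1qa, C1qc and C1qb, and each step between neighbours was smaller than the SD of either row. The order also changed between libraries. The C1qb row was the lowest of the 4 in replicate 1 and the highest in replicates 2 and 3, while the C1qc row was the highest in replicate 1 and the lowest in the others. The mean of the 3 C1q rows was 26.2, 25.2 and 23.4 RPKM, or 24.9 ± 1.42 (SD, n = 3). The mean of all 4 rows stood above 88.7%, 88.3% and 87.4% of the rows of each library.

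**Figure D1:**
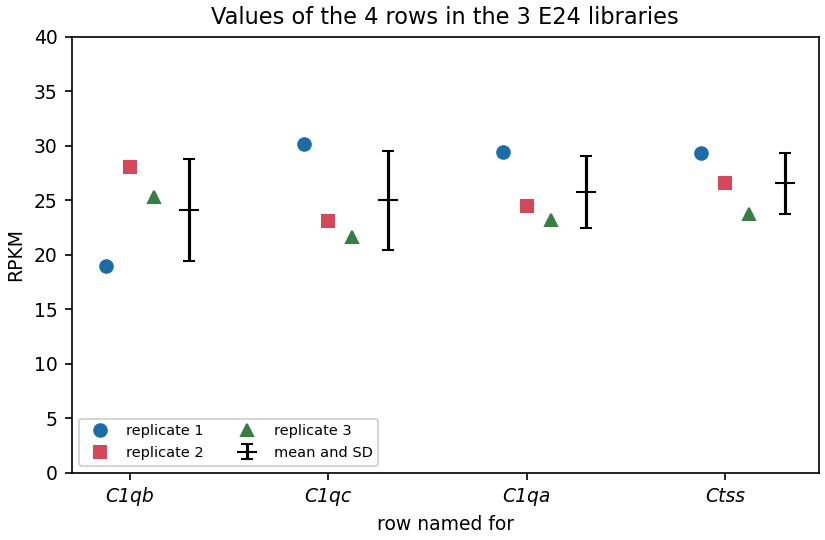
RPKM of the rows named C1qb, C1qc, C1qa and Ctss in each E24 library (points) with mean and SD over the 3 libraries (black). Replicate 1 is the lowest point in the C1qb row, at 18.9 RPKM, and the highest in the other rows, at 29.4 to 30.2 RPKM.

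The highest value of a row was 1.24 times its lowest for Ctss, 1.27 for C1qa, 1.39 for C1qc and 1.48 for C1qb. All 4 were thus within 1.5 times, as the choice of rows fixed, and 0 of 4 within 1.2 times. Among the 1869 rows with a mean of 20 to 35 RPKM, 24% were within 1.5 times, the median ratio was 9.16, and 625 were under 1 RPKM in a library. Over all rows the share at 1 RPKM or more in every library and within 1.5 times was 13.3%. Replicate 3 over replicate 2 was 0.902 for C1qb, 0.940 for C1qc, 0.947 for C1qa and 0.893 for Ctss. These 4 ratios lay within a narrow range. Replicate 2 over replicate 1 was spread more widely, at 1.48, 0.764, 0.832 and 0.904 for C1qb, C1qc, C1qa and Ctss. The 449 rows with a mean of 20 to 35 RPKM and within 1.5 times showed the same contrast. Their 10th to 90th percentiles were 0.908 to 1.085 for replicate 3 over 2, and 0.807 to 1.289 for replicate 2 over 1. The limit of 1.5 times bounds both ranges. For replicate 3 over 2, C1qb and Ctss lay below that range. For replicate 2 over 1, C1qb lay above it and C1qc below.

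The 10 rows within 5 rows of the C1q rows are all on chromosome 4 and mostly disagreed between libraries. At 7 of these 10 rows a library at 1 RPKM or more faced one that was under 1 RPKM or differed by more than 1.5 times, against 53.7% of all rows. Directly after C1qa, the row of the splicing factor gene Srsf10 held 28.8, 0.0222 and 0.0187 RPKM. The next, of the serotonin receptor gene Htr1d, held 0.652, 33.1 and 34.6 RPKM. Where replicate 1 was high, replicates 2 and 3 were low, and the reverse held a row later. The Gm13003 row held 25.2, 0.379 and 0.501 RPKM, the row of the ephrin receptor gene Epha8 0.0533, 0.0394 and 12.3 RPKM, and that of the signalling ligand gene Wnt4 1.43, 11.7 and 0.0327 RPKM. In these 3 rows a different library was high each time.

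On the other side the Lactbl1 row, next to C1qb, held 22.4, 26.0 and 17.6 RPKM and was the 1 neighbour within 1.5 times. Rows further up were those of the zinc finger gene Zfp46, at 11.2, 0.450 and 0.754 RPKM, and of the GTPase-activating gene Asap3, at 0.627, 19.2 and 25.7 RPKM. The row of Kdm1a, a histone demethylase gene used by most cell types, was listed at 0 in every library, and 4930549C01Rik was at 0.0270, 0 and 0 RPKM. The table is also not strictly in genomic order here, with 3 of 12 adjacent pairs reversed.

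Without regard to row, the higher values of the same 13 rows were close between libraries. Exactly 7 of them were at 10 RPKM or more in replicate 1, in replicate 2 and in replicate 3. Equal numbers were found in 23.1% of the 951 runs of 13 rows that averaged 7 such rows, runs that overlap each other. Sorted from high to low, the top 7 read 30.2, 29.5, 28.8, 25.2, 22.4, 18.9 and 11.2 RPKM in replicate 1. In replicate 2 they read 33.1, 28.1, 26.0, 24.5, 23.1, 19.2 and 11.7 RPKM, and in replicate 3 34.6, 25.7, 25.3, 23.2, 21.7, 17.6 and 12.3 RPKM. At each of these 7 ranks the highest was between 1.06 and 1.15 times the lowest, while at rank 8 it was 3.17 times and at rank 10 19.2 times the lowest. Sorting brings values closer by construction, so this closeness is a description. The sum over the 13 rows was 168.9, 166.5 and 161.7 RPKM, or 165.7 ± 3.67 (SD, n = 3). Over the 11 rows around Ctss it was 238.1, 83.6 and 81.9 RPKM, with Mcl1 holding most of the sum of replicate 1.

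**Figure D2:**
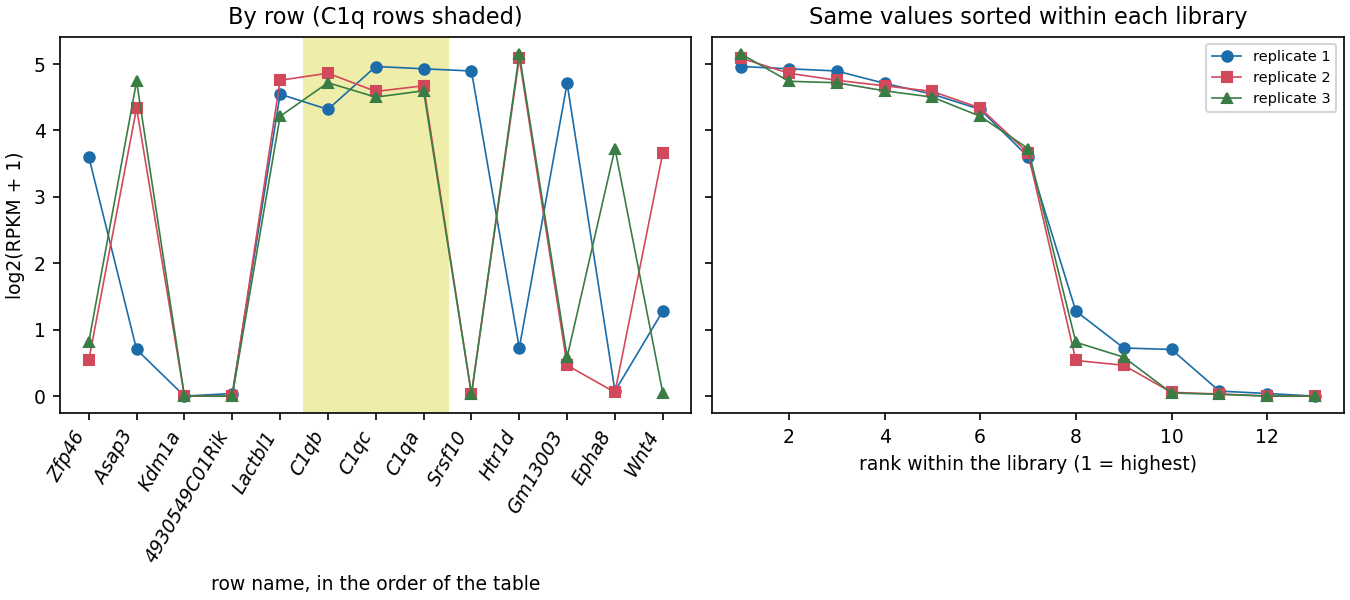
log2(RPKM + 1) of the 13 rows around the C1q rows in each library, in the order of the table (left, C1q rows shaded) and sorted within each library (right). By row the libraries part at 7 rows outside the shading, while sorted values nearly coincide over the 7 highest ranks.

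Within the 13 rows, 6 values of 15 to 40 RPKM stood in each library, and the 3 under the C1q names were only part of them. If the values of the 3 C1q genes were among these 6, their mean would lie between 22.2 and 29.5 RPKM in replicate 1, between 22.3 and 29.1 in replicate 2, and between 20.8 and 28.6 in replicate 3. These bounds are the means of the 3 lowest and the 3 highest of the 6. That the genes were among them was not tested.

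Row by row the ambiguity had a plain form. In replicate 1 the C1qb row held 18.9 RPKM, and the C1qb row of neither other library came within 0.2 of it on the natural-log scale. Values that did were those of Asap3 and C1qc in replicate 2 and of Lactbl1 and C1qc in replicate 3. For each of the 3 C1q rows and each of 6 ordered pairs of libraries, between 2 and 5 rows within 5 rows matched within 0.2. The own row was among them in 4 of 6 pairs for C1qa, 2 of 6 for C1qb and 2 of 6 for C1qc. Between replicates 2 and 3 it was among them for all 3 rows, in both directions. At the narrower difference of 0.1, the own row matched in 2 of 9 comparisons of a C1q row between libraries, both between replicates 2 and 3, for C1qc and C1qa. Over all rows the same-row share was 22.4%, and it differed by pair of libraries. It was 37.04% between replicates 2 and 3, against 15.03% between 1 and 2 and 15.37% between 1 and 3. For the C1q rows it was 2 of 3 between replicates 2 and 3, and 0 of 3 in each pair with replicate 1. Among the neighbours of the C1q rows the same-row share was 1 of 14, with that match between replicates 2 and 3. The highest number at another distance of up to 10 rows was 4 of 14, at 3 rows before and at 3 rows after, where 4.19% and 4.28% of all rows matched, and the median over these distances was 0. Since several rows matched each C1q value within 0.2, also where the own row was among them, this count could not assign the values to single C1q genes. The C1q rows were chosen for like values, so matches among them are in part fixed by that choice. The share of rows matched within 0.2 was not counted over the whole table.

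The surroundings of the Ctss row held fewer rows apart than those of the C1q rows. Of its 10 neighbours, all on chromosome 3, 3 were within 1.5 times, 5 were under 1 RPKM in every library and 2 were apart. Over all rows these shares were 13.3%, 33.0% and 53.7%. Rows under 1 RPKM in every library cannot be apart by this rule. Directly before Ctss, the row of the osteoclast protease gene Ctsk held 0.575, 0.392 and 0.330 RPKM. Directly after it, the row of the meiotic gene Hormad1 was listed at 0 in every library. The Ctss row thus stood alone between low rows in all 3 libraries. The row of the annexin gene Anxa9 held 0.364, 0.364 and 0.458 RPKM, and Fam63a, which encodes a deubiquitinase, held 4.91, 4.66 and 4.76 RPKM. Further up, Gm4349 held 0.233, 0.119 and 0.204 RPKM, and 4930558C23Rik was listed at 0.

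After Hormad1 the row of Arnt, partner of hypoxia-inducible factors, held 7.34, 9.95 and 11.1 RPKM, a ratio of 1.51. The Pogz row held 7.83, 6.33 and 7.52 RPKM, and the Golph3l row 5.76, 7.83 and 6.99 RPKM. These 3 rows overlap in level, so an exchange of values among them could not be seen. The row of the survival gene Mcl1, 5 rows after Ctss, held 181.7, 27.4 and 26.9 RPKM and was the 1 clear break.

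The break at Mcl1 bears on Ctss because the Mcl1 values of replicates 2 and 3 are near those of the Ctss row. Between libraries the Ctss row matched itself within a natural-log difference of 0.1 in 0 of 3 comparisons. Of the distances of up to 10 rows, the one with the most matches was 5 rows after, where Mcl1 stands. There the Ctss value of the earlier replicate of a pair was matched in 3 of 3, against 3.21% over all rows. In the other direction no pair matched within 0.1. Mcl1 held 181.7 RPKM in replicate 1, and its 27.4 RPKM in replicate 2 matched the Ctss value of replicate 3 only within 0.2. The 3 matches within 0.1 rest on the Mcl1 values of replicates 2 and 3 alone, and a displacement of values was not tested. With a difference of 0.2 the Ctss row matched itself in 4 of 6 ordered comparisons. Among the neighbours, 5 of 15 matched within 0.1 at the same row and 5 of 15 at the next row down, against 22.4% and 7.96% over all rows. Over 10 rows on either side, 3 values of 15 to 40 RPKM stood in each library, at Prune, Ctss and Ensa in replicate 1, at Prune, Ctss and Mcl1 in replicate 2, and at Snx27, Ctss and Mcl1 in replicate 3. An equal number in every library was found in 27.2% of the 4629 overlapping runs of 21 rows that averaged 3. The Ctss row is the only one of them in all 3 libraries. These values ran from 22.0 to 29.4 RPKM, from 24.7 to 27.4 and from 23.7 to 26.9 in replicates 1, 2 and 3, which bound the level of Ctss if its value is among them. Whether it is was not tested.

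**Figure D3:**
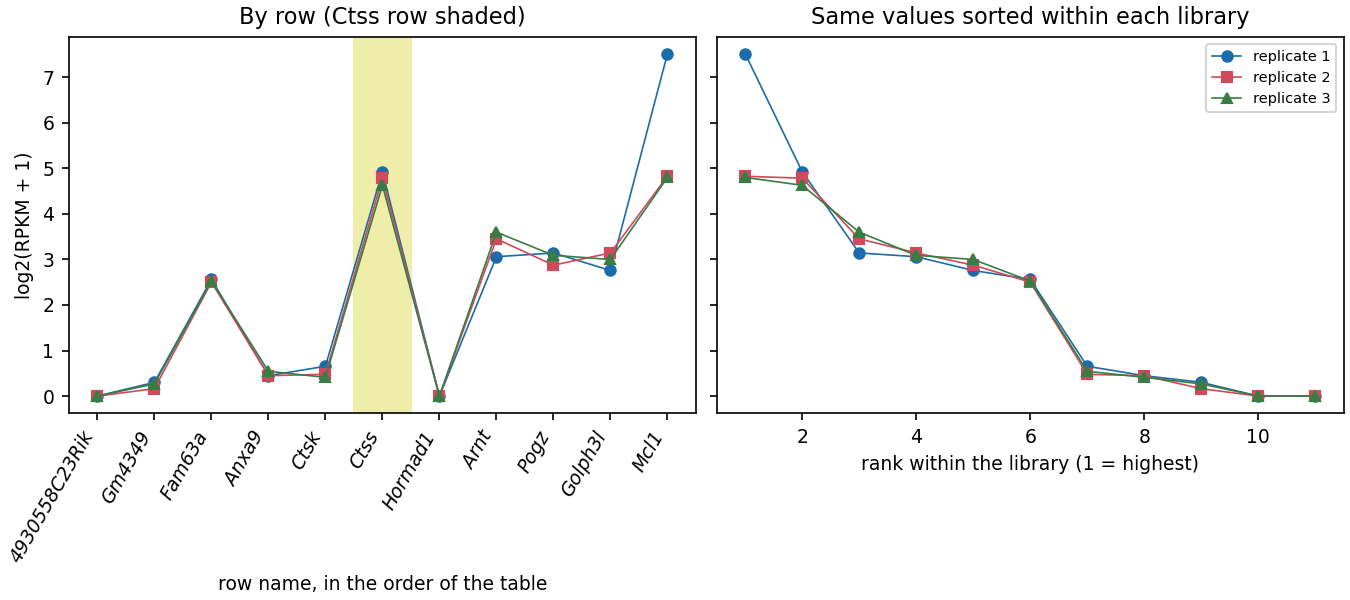
log2(RPKM + 1) of the 11 rows around the Ctss row (shaded) in each library, by row (left) and sorted (right). The Ctss row, at 23.7 to 29.4 RPKM, stands between rows under 1 RPKM in every library, and the Mcl1 row is the only one with a large gap between libraries.

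Rows with much the same pattern were found elsewhere in the table. Of those named here all but Spag8 lie on other chromosomes, and Spag8 lies on chromosome 4, as does C1qa. Likeness was the largest difference in log2(RPKM + 1) over the 3 libraries, and the 3 nearest rows outside the 4 members are given. For C1qa they were Spag8, Mrpl43 and Prkar2a, with differences of 0.05, 0.05 and 0.06. For C1qb they were 4933433F19Rik, Iqgap2 and Eif2s1, at 0.02, 0.04 and 0.09. Mrps24, Chst2 and Dgkb lay nearest to C1qc, at 0.06, 0.08 and 0.09, and Fam228b, Prkar2a and Pde6d nearest to Ctss, at 0.04, 0.05 and 0.06. Among the members, C1qa and C1qc differed by 0.09, with 10 other rows nearer to C1qa and 4 nearer to C1qc. C1qa and Ctss differed by 0.11, and C1qb was at least 0.61 from each of the others, with 467 or more rows nearer to it.

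Other genes of these pathways were counted by row name, in lists drawn up with earlier results of these data known. Calls are symbols above a level of 1 RPKM in a one-sided limma test of log2(RPKM + 1) at a Benjamini-Hochberg adjusted p under 0.05 over all symbols, and 18.9% of the 23934 symbols were called. In the pathway and microglial lists together, which leave out the 4 members, 20 of 100 symbols were called, a share near that background. Their median was 4.02 RPKM against 3.73 over all symbols. The pooled share joins unlike lists, as the microglial list had 13 of 23 called and each pathway list between 0 and 2. Without replicate 2 the pooled count was 11 and without replicate 3 it was 9. Of the 20, 6 were called with each library left out in turn, namely Cstb, Ctsa, Cx3cr1, Laptm5, Tmem119 and Tyrobp. Of the 100 symbols, 39 were at 1 RPKM or more in 1 or 2 libraries only, and 7 were listed at 0 in all 3.

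Complement activation rows had 1 of 21 called, with a median of 0.949 RPKM. The list is not limited to genes downstream of C1q, as it also holds genes of other routes of activation, such as Mbl1, Mbl2 and Cfd. That row, C1s1, encodes a protease of the C1 complex and held 27.0, 5.20 and 26.5 RPKM (limma adjusted p = 0.0456). C1ra and C1rb, the partner proteases, were under 1 RPKM in every library. C4b, which C1s cleaves, held 2.80, 3.35 and 2.83 RPKM and C3, the central component, 1.12, 1.70 and 0.0317 RPKM. The C4a row held 13.4, 11.3 and 0.290 RPKM and the C2 row 0.454, 21.5 and 0 RPKM, and neither was called. The rows of C9, Cfd, Mbl1 and Mbl2 were listed at 0. So of the proteins that act just after C1q, only the C1s1 row was called, with replicate 2 the lowest. The call was lost without replicate 1 and without replicate 3.

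Complement inhibitor rows had 1 of 13 called, Cr1l, at 5.20, 7.28 and 7.96 RPKM (limma adjusted p = 0.0145), with a list median of 2.80 RPKM. The count was 0 without replicate 2 and 0 without replicate 3. The Serping1 row, for the C1 inhibitor, held 0.824, 1.54 and 2.36 RPKM. Complement receptor rows had 0 of 11 called and a median of 10.6 RPKM, and 2 were called without replicate 1 and 1 without replicate 2. Their spread between libraries ranged from narrow to wide. Itgb2, the shared chain of complement receptors 3 and 4, held 1.01, 1.12 and 1.11 RPKM. C3ar1, the receptor of the C3a fragment, held 0.0739, 8.01 and 79.7 RPKM, and Itgam, a chain of complement receptor 3, held 14.0, 2.69 and 15.2 RPKM.

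Relatives of C1q that share its globular domain had 2 of 9 called, C1qtnf4 at 47.8, 44.1 and 11.03 RPKM and C1ql1 at 7.86, 5.56 and 6.32 RPKM (limma adjusted p = 0.0231 and 0.0134), with a list median of 2.82 RPKM. The call of C1qtnf4 was lost without replicate 1 and without replicate 2, and that of C1ql1 without replicate 2 and without replicate 3. C1ql2, made by granule neurons of the dentate gyrus, was at 0.698, 0.476 and 0.462 RPKM, and C1ql4 was listed at 0. These relatives are secreted proteins and are not complement components, and the C1ql and cerebellin (Cbln) proteins among them act at synapses.

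Of the 13 other cathepsin rows 1 was called, the serine carboxypeptidase Ctsa at 20.4, 19.3 and 18.3 RPKM (limma adjusted p = 0.00141), and the list median was 8.22 RPKM. The Ctsa row had a narrow spread between libraries. Rows of the abundant lysosomal proteases varied far more, with Ctsb at 81.3, 19.1 and 0 RPKM and Ctsd at 4.24, 36.1 and 0.0583 RPKM. Ctsg was listed at 0. Of 4 cystatin rows, which encode inhibitors of cysteine cathepsins, Cstb was called at 33.9, 30.2 and 26.9 RPKM (limma adjusted p = 0.00141), and the list median was 18.1 RPKM. Of 7 rows of class II presentation, where cathepsin S acts, Ciita, the master regulator of class II genes, was called at 10.4, 4.45 and 4.30 RPKM (limma adjusted p = 0.0474). That call was lost with any 1 library left out. The median of that list was 0.475 RPKM, and Cd74, the invariant chain trimmed by cathepsin S, held 1.02, 0.680 and 0.404 RPKM.

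**Figure D4:**
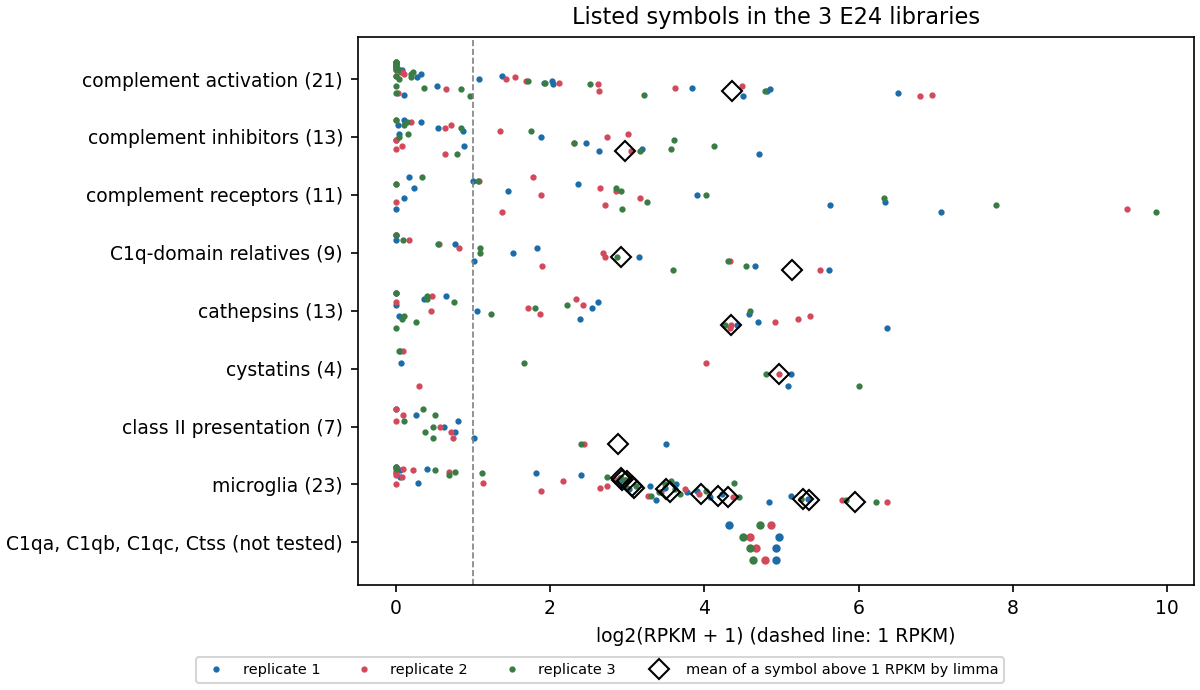
log2(RPKM + 1) of each listed symbol in each library (dots; number of symbols in parentheses), with diamonds at the mean of symbols above 1 RPKM by limma. The microglial list has 13 diamonds among 23 symbols, and the 4 members, at 18.9 to 30.2 RPKM, are shown untested.

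Microglial marker rows had 13 of 23 called, with a median of 7.20 RPKM. The 3 highest were Spi1, the gene of PU.1, at 27.7, 81.5 and 73.9 RPKM, the purine receptor P2ry12 at 9.34, 54.1 and 56.1 RPKM, and the lysosomal gene Laptm5 at 39.5, 37.2 and 37.1 RPKM. The count was 6 without replicate 2 and 4 without replicate 3. Of the rows that define microglia, Csf1r, the receptor their survival depends on, was listed at 0 and Aif1 was at 0.323, 0.0654 and 0 RPKM. Tmem119 held 15.9, 19.6 and 20.8 RPKM and Cx3cr1 12.7, 9.89 and 9.69 RPKM. The summed level of the list was 235.5, 269.7 and 322.3 RPKM. The name microglial for the 4 members comes from what the genes are known for, and the cells their values come from were not tested.

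Lists for other cells that can make C1q or cathepsin S are short, and their counts were not compared with the microglial one. Border macrophage rows had 0 of 7, with sums of 57.0, 0.760 and 4.68 RPKM, of which the Cbr2 row made 41.9 in replicate 1, and Cd163 listed at 0. Monocyte and neutrophil rows had 0 of 5, with sums of 57.6, 9.38 and 50.8 RPKM, of which the Plac8 row made 47.8 in replicate 1 and the S100a8 row 50.7 in replicate 3, and S100a9 listed at 0. The part of these cells in the members' values was not tested. Granule neuron rows, which should mark the labelled tissue, had 0 of 5 called, and 2 of 5, Calb1 and Dsp, without replicate 1. Calb1 held 7.18, 91.3 and 89.8 RPKM, Dsp 0.325, 40.1 and 38.9 RPKM and Prox1 1.58, 39.3 and 0 RPKM. Astrocyte, oligodendrocyte and endothelial rows had 1 of 6, 0 of 6 and 1 of 5.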

How the data were processed

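RNA of 3 dentate gyrus samples of 1 group was analysed. The RPKM values are as deposited, and the submitters' processing notes name TopHat2, Cufflinks and mm9. For versions, annotation and filters, nothing is stated in the labels or the header. A further 9 value columns match no listed sample and were not used. Depth is unknown. Each library came from 1 animal, per the labels' protocols.

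The members and lists were chosen with earlier results of these data known. Rows kept the order of the table. A match was a natural-log difference of at most 0.1 between libraries, counted for rows at 1 RPKM or more in the first library of a pair. Sorted values, runs of rows and the difference of 0.2 were added after seeing the data. Levels were tested with limma 3.58.1 in R 4.3.3 on log2(RPKM + 1) against 1 RPKM, summing rows that share a symbol, with a variance trend. On data simulated for 23934 symbols with an SD of 0.2 it recovered 100% of symbols set 2-fold and 4-fold above the level and called 3 of 8300 below it. On this scale the 15434 symbols averaging at least 1 RPKM have a median SD of 1.38, so that recovery does not carry over to these data. The named rows are the members, rows within 5 rows, the 3 most alike, and per list up to the 3 highest called and those at 0; C1ra, C1rb, C4b, C3, Serping1, C3ar1, Itgam, C1ql2, Ctsb, Ctsd, Cd74, Aif1, Tmem119, Cx3cr1, Tyrobp, Prox1, Calb1, Dsp, Itgb2, Cbr2, Plac8 and S100a8, and Ensa, Prune and Snx27, were added after their values were seen. C2 and C4a were also added after their values were seen. Alternatives were scaling, pseudocount, filter, level, tolerance, window and leaving out each library.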

Additional observations from a re-analysis of the deposited data

How the results depend on the processing

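Of 44 alternatives for counts and shares, 31 stayed within the binomial interval or 1.5 times the count, and 13 did not. For the mean of a member row, leaving out 1 of 3 libraries or summing rows of 1 symbol cannot move it past its SD, so those settings say nothing of stability. Upper-quartile scaling gave 25.8 RPKM for C1qa, 24.1 for C1qb, 25.0 for C1qc and 26.6 for Ctss. With each library left out in turn, the means were 23.9 to 27.0 RPKM for C1qa, 22.1 to 26.7 for C1qb, 22.4 to 26.6 for C1qc and 25.1 to 28.0 for Ctss. Symbols above the level numbered 2049 at 5 RPKM and between 2686 and 4978 when 1 library was dropped (4521 with all). Listed symbols numbered 6 at 5 RPKM and between 9 and 20 when 1 library was dropped (20 with all). Near the C1q rows the same-row share was 7.14%, and 0% to 25% when 1 library was dropped. Near Ctss it was 33.3%, against 60% with a tolerance of 0.2, 0% with 2 rows on either side (3 comparisons), and 20% to 40% when 1 library was dropped. Rows at 1 RPKM or more within 1.5 times numbered 3241, against 1699 within 1.2 times, 1573 when 10 RPKM was asked of every library, and between 4710 and 6526 when 1 library was dropped. Settings that count other rows or fewer libraries differ by construction; for the rest the cause was not tested. No paired analysis was possible because only 1 group was listed. The limits set by read depth are not given, as the values carry no depth.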
